A study of Mus musculus with 18 samples.

Results

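The CYP1 family of cytochrome P450 enzymes has 3 members in the mouse that were followed here, Cyp1a1, Cyp1a2 and Cyp1b1, chosen by name from the 55536 genes in the count files. All 3 passed the filter on low counts and are among the 14835 genes tested. The data are RNA-seq read counts from livers of 18 female C57BL/6 mice, 3 in each of 6 groups. TCDD was given by gavage at 100 µg/kg every 4 days until day 92, and control mice received the peanut oil vehicle. The genotypes are AhRΔHep, in which the aryl hydrocarbon receptor (AHR) is deleted in hepatocytes (dHep below), AhRΔHSC, in which it is deleted in hepatic stellate cells (dHSC below), and mice labelled WT, which the series' design text calls AhRfl/fl. The 6 groups are dHep with TCDD, dHep with vehicle, dHSC with TCDD, dHSC with vehicle, WT with TCDD and WT with vehicle. The ages of the mice, the drivers of the deletions and the deleted part of Ahr are not given in the sources used here. By its title the study is about chronic TCDD, activation of liver myofibroblasts and AHR in hepatocytes.

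AHR is a ligand-activated transcription factor that waits in the cytosol with chaperones. When TCDD, a dioxin that is broken down very slowly, binds it, AHR enters the nucleus, pairs with ARNT and binds DNA at sites with the core GCGTG. CYP1 genes are its classical targets. Cyp1a1 and Cyp1a2 oxidise polycyclic aromatic and heterocyclic compounds, and Cyp1a2 is known as a hepatocyte gene that is on without inducer and binds dioxin itself. Cyp1b1 acts on aromatic hydrocarbons and steroids and is known mainly from tissues other than the hepatocyte, stellate cells among them.

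Cyp1a1 (ENSMUSG00000032315, chromosome 9, 57687928 to 57703824, plus strand) and Cyp1a2 (ENSMUSG00000032310, chromosome 9, 57676937 to 57683703, minus strand) are neighbours that point away from each other, with 4224 bases between their annotated spans. Cyp1b1 (ENSMUSG00000024087, chromosome 17, 79701537 to 79715061, minus strand) lies alone. Positions are on GRCm38. None of the 3 spans overlaps another annotated gene, so their reads were not at risk of being assigned to an overlapping gene. RefSeq (GRCm38.p6) has a start site for all 3, and the 250 bases before each are shown because they carry, or lack, the letters of the AHR core within reach of the start. For Cyp1a1 the window is chr9:57697363-57697612 on the plus strand, for Cyp1a2 chr9:57683656-57683905 on the minus strand and for Cyp1b1 chr17:79715062-79715311 on the minus strand. Capitals mark GCGTG on either strand (CACGC when it lies on the opposite strand) and TATAAA on the gene's own strand; the matches do not overlap.
Cyp1a1: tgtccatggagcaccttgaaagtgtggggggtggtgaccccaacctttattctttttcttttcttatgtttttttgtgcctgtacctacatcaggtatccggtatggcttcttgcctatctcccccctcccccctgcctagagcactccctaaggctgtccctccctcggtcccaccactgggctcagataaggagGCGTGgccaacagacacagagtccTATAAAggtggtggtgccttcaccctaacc
Cyp1a2: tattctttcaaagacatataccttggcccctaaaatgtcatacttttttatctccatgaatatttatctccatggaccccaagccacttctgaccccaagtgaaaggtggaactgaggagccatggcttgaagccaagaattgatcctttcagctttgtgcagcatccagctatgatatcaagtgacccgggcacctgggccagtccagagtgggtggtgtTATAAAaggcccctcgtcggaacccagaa
Cyp1b1: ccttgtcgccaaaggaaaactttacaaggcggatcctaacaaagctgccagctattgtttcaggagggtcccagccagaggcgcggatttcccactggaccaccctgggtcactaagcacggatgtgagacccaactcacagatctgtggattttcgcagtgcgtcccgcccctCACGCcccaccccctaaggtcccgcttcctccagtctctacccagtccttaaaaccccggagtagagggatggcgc
Cyp1a1 and Cyp1b1 each have 1 match to the AHR core in this window, beginning 54 bases before the start in Cyp1a1 and 76 bases before it, on the opposite strand, in Cyp1b1. Cyp1a2 has none in these 250 bases. Of 32851 windows of the same length in RefSeq, 28.2% hold GCGTG on either strand. TATAAA is present in Cyp1a1 (30 bases before the start) and Cyp1a2 (29 bases before it) and not in Cyp1b1, and 7.59% of all windows hold it. These letter matches are a description of the windows.

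Libraries held 12706490 to 27240877 counts. In 5 of the 18, the share of counts outside protein-coding genes was 2.20% to 4.25%, against at most 1.76% in the other 13. They are mice 9 and 15 of dHep vehicle, mouse 16 of dHep TCDD, mouse 17 of dHSC vehicle and mouse 18 of dHSC TCDD, and they are called here the libraries that stand apart. Mitochondrially encoded genes took 28.4% of counts in mouse 18. Ahr itself averaged 61.6 ± 32.9 CPM (library-size-scaled read counts, SD, n = 3) in dHep TCDD, 38.0 ± 16.3 in dHep vehicle, 47.4 ± 21.0 in dHSC TCDD, 39.4 ± 6.44 in dHSC vehicle, 51.5 ± 6.21 in WT TCDD and 51.5 ± 18.7 in WT vehicle. Reads were counted along all of Ahr, and a deletion of some of its exons can leave that total as it was, so the level is no test of the genotype labels. The 5 tested of 6 listed hepatocyte markers were present in every group, with summed levels from 44107 to 160888 CPM in the single livers.

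Cyp1a1 was low without TCDD and among the most abundant transcripts with it, unless hepatocytes lacked AHR. In library-size-scaled read counts (CPM, with TMM scaling) its level was 304, 283 and 334 in dHep TCDD mice 4, 10 and 16, and 78.9, 86.9 and 25.9 in dHep vehicle mice 3, 9 and 15. It was 5486, 5576 and 2449 CPM in dHSC TCDD mice 6, 12 and 18, and 16.7, 3.24 and 15.1 in dHSC vehicle mice 5, 11 and 17. It was 5873, 8328 and 5089.6 CPM in WT TCDD mice 2, 8 and 14, and 33.2, 5.04 and 8.04 in WT vehicle mice 1, 7 and 13. In each genotype every TCDD liver lay above every vehicle liver. In dHep livers 4.56% of all genes were separated in this way. That share was not counted for dHSC and WT livers, so for each of the 3 CYP1 genes the separation there is a description. The TCDD livers of dHep mice lay below all other TCDD livers and above all vehicle livers of the series.

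Cyp1a2 differed from Cyp1a1 in having a substantial level without TCDD. It was at 284, 513 and 447 CPM in dHep TCDD mice 4, 10 and 16, and at 256, 344 and 473 in dHep vehicle mice 3, 9 and 15. It was at 13996, 14373 and 7557 CPM in dHSC TCDD mice 6, 12 and 18, and at 1665, 1287 and 1693 in dHSC vehicle mice 5, 11 and 17. It was at 14201.5, 20113 and 13876 CPM in WT TCDD mice 2, 8 and 14, and at 1841, 1465 and 260.3 in WT vehicle mice 1, 7 and 13. The dHep livers with and without TCDD overlapped, while TCDD and vehicle livers were apart in dHSC and in WT. WT vehicle mouse 13 was as low as the dHep livers, and the other WT and dHSC vehicle livers were all above the dHep livers.

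Cyp1b1 was close to absent from vehicle livers of WT and dHSC mice. It was at 100.7, 89.6 and 71.9 CPM in dHep TCDD mice 4, 10 and 16, and at 10.7, 21.2 and 3.92 in dHep vehicle mice 3, 9 and 15. It was at 937, 1038 and 291 CPM in dHSC TCDD mice 6, 12 and 18, and at 1.54, 2.14 and 3.24 in dHSC vehicle mice 5, 11 and 17. It was at 1397, 1037 and 1223 CPM in WT TCDD mice 2, 8 and 14, and at 2.52, 1.01 and 2.70 in WT vehicle mice 1, 7 and 13. TCDD livers were above vehicle livers in all 3 genotypes, and the dHep vehicle livers were above all other vehicle livers. The WT vehicle values rest on few reads, 18 in the lowest library, for which the 95% exact Poisson interval is 10.7 to 28.4 reads and covers counting error only.

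**Figure D1:**
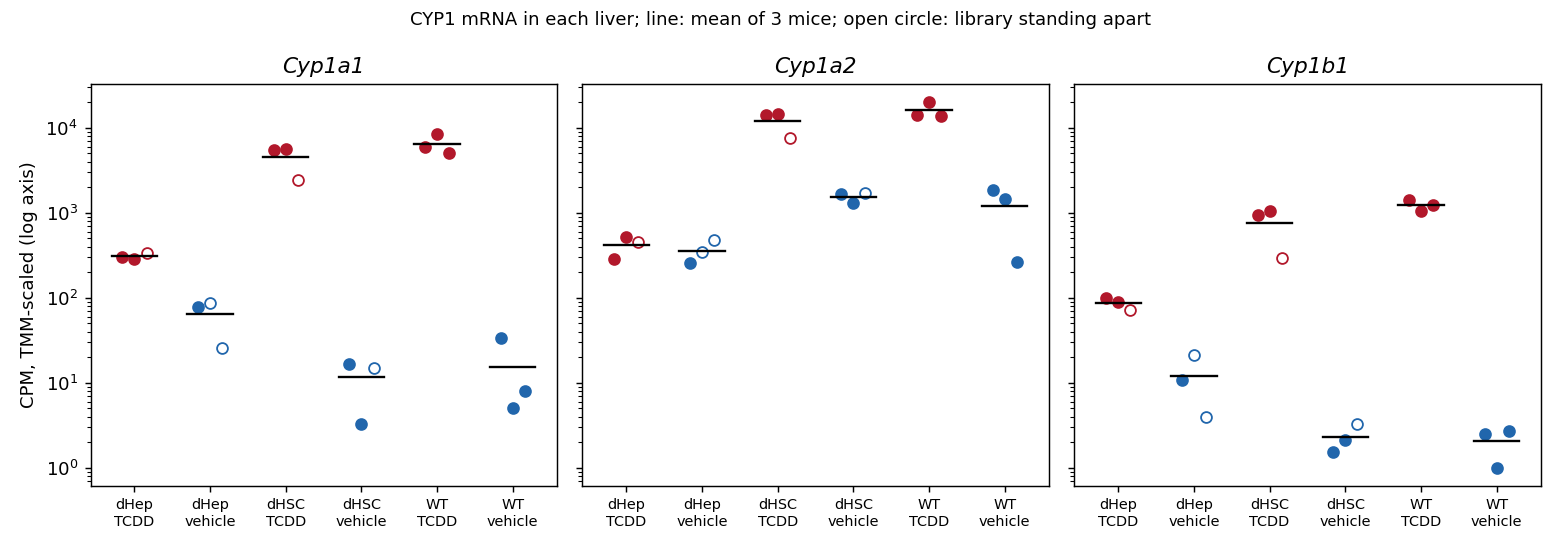
Level of each CYP1 gene in every liver, in CPM on a log axis, by genotype and treatment (red TCDD, blue vehicle). Lines are means of 3 mice and open circles are the 5 libraries that stand apart. With TCDD the dHep livers sit at 283 to 334 CPM for Cyp1a1, far under the WT livers at 5089.6 to 8328 CPM, and the dHep Cyp1a2 values with and without TCDD overlap.

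Per kilobase of exon, which allows levels of different genes to be compared, Cyp1a2 was the most abundant of the 3 genes in every group and Cyp1b1 the least. In dHep TCDD livers Cyp1a2 had 206 ± 58.5 CPM per kb (SD, n = 3), rank 289 of 14835 genes, Cyp1a1 had 110 ± 9.12 at rank 520 and Cyp1b1 had 14.97 ± 2.49 at rank 2511. In dHep vehicle livers the ranks were 343, 1737 and 8328 in the same order of genes. In WT TCDD livers Cyp1a2 had 7979.9 ± 1744 CPM per kb at rank 5, Cyp1a1 had 2307 ± 606 at rank 17 and Cyp1b1 had 209 ± 30.8 at rank 237. In WT vehicle livers the ranks were 93, 5053 and 12281. Together the 3 genes took 0.0784% ± 0.00564 of all counts in dHep TCDD livers and 0.0410% ± 0.00825 in dHep vehicle livers. Their share was 1.88% ± 0.706 in dHSC TCDD livers and 0.149% ± 0.0195 in dHSC vehicle livers. In WT it was 2.65% ± 0.275 with TCDD and 0.112% ± 0.0851 with vehicle.

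In WT livers, with no deletion of AHR named in the labels, TCDD raised all 3 genes, where 3.43% of the genes tested were called higher. Cyp1b1 rose by 9.19 ± 0.76 on the log2 scale (SE, n = 3 mice a group), a 586-fold change with a 95% interval of 192 to 1787 (edgeR adjusted p = 4.52e-06). Cyp1a1 averaged 6430.2 ± 1689.8 CPM with TCDD and 15.4 ± 15.5 with vehicle (SD, n = 3), a 416-fold change with an interval of 107 to 1615 (adjusted p = 4.56e-05). Without WT vehicle mouse 1, which had the highest vehicle level, its log2 change was 9.93 in place of 8.70. That library also had 182 CPM of the 1 skeletal muscle marker tested of 5 listed, against at most 2.59 CPM elsewhere, and the part of this in the result was not tested. Cyp1a2 averaged 16064 ± 3510.5 CPM with TCDD and 1189 ± 826 with vehicle, a 13.5-fold change with an interval of 5.78 to 31.6 (adjusted p = 0.000904). Cyp1a2 thus had the smallest fold change and the largest gain in reads. The gain of TCDD over vehicle was 14875 ± 2082 CPM (SE, n = 3) for Cyp1a2, 6415 ± 976 for Cyp1a1 and 1217 ± 104 for Cyp1b1. In bulk liver, fewer cells of a type and less RNA per cell cannot be told apart, and a hepatocyte marker list of 5 tested genes summed to 44107 to 84620 CPM in WT TCDD livers and 82585 to 145724 in WT vehicle livers; the part of this in the results was not tested.

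In dHSC livers, which lack AHR in stellate cells, all 3 genes also rose with TCDD, where 1.71% of genes were called higher. Cyp1a1 rose 385-fold (95% interval 99.9 to 1488, edgeR adjusted p = 8.41e-05), Cyp1b1 329-fold (112 to 969, adjusted p = 9.53e-06) and Cyp1a2 7.74-fold (3.41 to 17.5, adjusted p = 0.00786). Cyp1a2 lost its call when dHSC vehicle mouse 11 was left out (log2 change 2.83, adjusted p = 0.0596) and when the 5 libraries were (3.27, adjusted p = 0.0539). The lowest dHSC TCDD value of each of the 3 genes was that of mouse 18, a library that stands apart. The responses of dHSC and WT livers did not pass the test of their difference for any of the 3 genes, and edgeR called 0 of all genes tested there, which is 0% (233 at an unadjusted p under 0.05, and 3 with DESeq2). The difference of the dHSC from the WT response was -0.11 for Cyp1a1 (95% interval -2.10 to 1.88), -0.80 for Cyp1a2 (-2.36 to 0.75) and -0.83 for Cyp1b1 (-2.49 to 0.82), all on the log2 scale. With TCDD, levels in dHSC livers were 70.0% of the WT level for Cyp1a1 (interval 26.5% to 185%), 74.5% for Cyp1a2 (34.8% to 160%) and 61.9% for Cyp1b1 (28.4% to 135%). None of these was called, as was 0% of all genes (539 at an unadjusted p under 0.05, 21 with DESeq2). The intervals leave room for a decrease to about the lower bounds given, so they do not show equal induction. With vehicle, the log2 difference of dHSC from WT was -0.40 for Cyp1a1 (95% interval -1.82 to 1.01), 0.38 for Cyp1a2 (-0.72 to 1.48) and 0.14 for Cyp1b1 (-1.07 to 1.35), and edgeR called 0% of genes (220 at an unadjusted p under 0.05, 2 with DESeq2).

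In dHep livers, without AHR in hepatocytes, the fold changes of the 3 genes were smaller than in WT and dHSC livers. The 95% intervals were wide, as in the other genotypes. Cyp1b1 was 7.30-fold higher with TCDD (95% interval 3.16 to 16.9), at 87.4 ± 14.5 CPM with TCDD and 11.9 ± 8.69 with vehicle (SD, n = 3). Cyp1a1 was 4.80-fold higher (interval 1.74 to 13.3), at 307 ± 25.4 CPM with TCDD and 63.9 ± 33.2 with vehicle. Cyp1a2 was 1.16-fold higher (interval 0.541 to 2.48), at 414 ± 118 CPM with TCDD and 358 ± 109 with vehicle. None of the 3 was called by edgeR over all genes, with adjusted p of 0.0909 for Cyp1b1, 0.473 for Cyp1a1 and 0.960 for Cyp1a2, where 0.027% of genes were called higher. Without dHep vehicle mouse 9, which had the highest vehicle level, the log2 change of Cyp1b1 was 3.56 in place of 2.87 (adjusted p = 0.0549, and 0.0549 to 0.367 over the libraries left out in turn). Unadjusted p was 0.000122 for Cyp1b1 and 0.00475 for Cyp1a1 by edgeR, ranks 19 and 149 of 14835. Cyp1b1 passed with DESeq2 (adjusted p = 0.000131) and with no filter on low counts (adjusted p = 0.0334). In Cyp1a1 and Cyp1b1 the dHep TCDD livers did not overlap the dHep vehicle livers, as was so for 4.56% of genes in that direction. With the 5 libraries left out, mouse 3 is the 1 dHep vehicle library and its spread is taken from the other groups; the log2 changes were then 1.90 for Cyp1a1, 3.15 for Cyp1b1 and 0.64 for Cyp1a2, none of them called.

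The size of what was left can be read as a share of the WT values. The gain in CPM with TCDD in dHep livers was 243 ± 24.1 CPM for Cyp1a1 (SE, n = 3), 3.79% of the gain in WT. For Cyp1b1 it was 75.5 ± 9.77 CPM, 6.20% of the WT gain, and for Cyp1a2 it was 56.5 ± 92.7 CPM, a gain smaller than its error. Compared directly, dHep TCDD livers had 4.78% of the WT TCDD level of Cyp1a1 (95% interval 1.57% to 14.6%, edgeR adjusted p = 0.00453). They had 2.58% of that of Cyp1a2 (1.04% to 6.43%, adjusted p = 0.000251) and 7.17% of that of Cyp1b1 (3.01% to 17.1%, adjusted p = 0.00211). All 3 genes were therefore lower in dHep than in WT livers under TCDD, where 1.12% of genes were called lower, and the 3 calls held in each alternative run.

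The dependence of the response on hepatocyte AHR was tested as the difference between the dHep and WT responses, in which 0.506% of genes were called lower. All 3 CYP1 genes were called lower. The difference on the log2 scale was -6.44 ± 1.02 for Cyp1a1 (SE, n = 3, edgeR adjusted p = 0.00582), -6.33 ± 0.82 for Cyp1b1 (adjusted p = 0.00156) and -3.54 ± 0.75 for Cyp1a2 (adjusted p = 0.0353). The call of Cyp1b1 held in every alternative, at -5.63 without dHep vehicle mouse 9. The call of Cyp1a1 held whichever library was left out, at -7.66 without WT vehicle mouse 1, but not with the 5 libraries left out together (-6.81, adjusted p = 0.0577). The call of Cyp1a2 was the least stable. It held without dHep vehicle mouse 3, WT vehicle mouse 1 or WT vehicle mouse 13, and ended when any of the other 9 libraries of the comparison was left out, with adjusted p from 0.0712 to 0.125. Leaving out the 5 libraries ended it too (-3.12, adjusted p = 0.346). Set against the dHSC response, the dHep response was lower for Cyp1a1 (-6.33 ± 1.02, edgeR adjusted p = 0.00899) and Cyp1b1 (-5.49 ± 0.81, adjusted p = 0.00514), where 0.276% of genes were called lower. The value for Cyp1b1 was -4.80 without dHep vehicle mouse 9, and Cyp1a1 was at -7.20 without the 5 libraries (adjusted p = 0.0968). Cyp1a2 was at -2.74 ± 0.75 with an adjusted p of 0.174 by edgeR and 0.0141 by DESeq2. Both differences share the dHep livers, and the dHep and dHSC comparisons with WT share the WT livers.

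**Figure D2:**
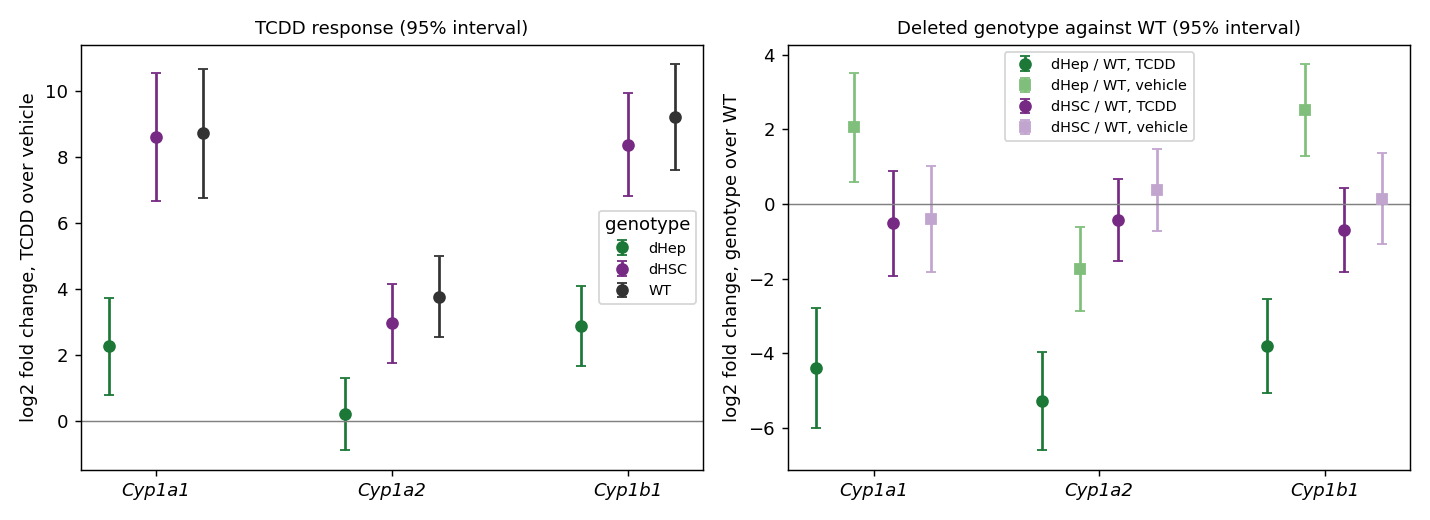
Left, log2 fold change of TCDD over vehicle in each genotype; right, log2 fold change of each deleted genotype over WT, with TCDD (circles) and with vehicle (squares). Bars are 95% intervals from the edgeR fit. The dHep responses, 2.26 for Cyp1a1, 0.21 for Cyp1a2 and 2.87 for Cyp1b1, lie under the dHSC and WT responses, and the dHep vehicle values of Cyp1a1 and Cyp1b1 lie above 0 on the right.

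The difference between the dHep and WT responses is their difference under TCDD less that under vehicle, and the vehicle groups added to it for Cyp1a1 and Cyp1b1 and took from it for Cyp1a2. In vehicle, the log2 difference of dHep from WT livers was 2.52 ± 0.58 for Cyp1b1 (SE, n = 3), 2.05 ± 0.69 for Cyp1a1 (95% interval 0.59 to 3.51) and -1.73 ± 0.53 for Cyp1a2 (95% interval -2.86 to -0.60). Cyp1a1 and Cyp1b1 thus leaned in the direction opposite to Cyp1a2. Without WT vehicle mouse 1 the difference was 3.28 for Cyp1a1, and without dHep vehicle mouse 9 it was 1.83 for Cyp1b1. None was called by edgeR (adjusted p = 0.623 for each, unadjusted p of 0.000482, 0.00893 and 0.00500 for Cyp1b1, Cyp1a1 and Cyp1a2 by the same test), where 0% of genes were called, 1025 had an unadjusted p under 0.05 and DESeq2 called 5. Cyp1b1 was 1 of those 5, with an adjusted p of 0.0246 by DESeq2. The dHep and WT vehicle livers did not overlap in Cyp1b1, as in 4.58% of genes in that direction, but did in Cyp1a1 and Cyp1a2. Mice 9 and 15 of dHep vehicle are libraries that stand apart, and mouse 3 is not. Mouse 3 had 78.9 CPM of Cyp1a1 and 10.7 of Cyp1b1, each above all vehicle livers of the other genotypes, while mouse 15 was the lowest of the dHep vehicle livers in both. Without the 5 libraries the log2 differences from WT were 2.35 for Cyp1a1, 2.37 for Cyp1b1 and -2.21 for Cyp1a2.

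Markers of cells other than hepatocytes were followed because the dHep label names a deletion in hepatocytes only. Whether each of the other cell types kept AHR was not measured. No listed marker that was tested was at 0 throughout any group. In dHep TCDD and dHep vehicle livers, 5 tested endothelial markers summed to 125 to 157 CPM and 83.4 to 156 CPM. The sums of 6 tested stellate markers were 300.4 to 401 CPM in dHep TCDD livers and 193 to 292 in dHep vehicle livers, and those of 5 macrophage markers 254 to 361 and 280.2 to 492. Cholangiocyte markers, all 5 of them, summed to 94.5 to 232 CPM in dHep TCDD livers, 68.9 to 174 in dHep vehicle livers and 48.4 to 64.7 in WT vehicle livers. For 4 tested neutrophil markers the sums were 8.66 to 24.4 CPM in dHep TCDD, 3.97 to 15.3 in dHep vehicle and 1.18 to 3.33 in WT vehicle livers. In dHSC vehicle livers the cholangiocyte sums were 37.4 to 89.5 CPM and the neutrophil sums 1.45 to 4.36, both overlapping dHep vehicle. In WT vehicle livers the endothelial sums were 65.6 to 229 CPM, the stellate sums 235 to 595 and the macrophage sums 169 to 521. These too overlapped the dHep vehicle sums. In each of these 5 lists 0 markers were called with TCDD in dHep livers by edgeR, where 0.027% of all genes were called higher. With TCDD in WT livers, where 3.43% of genes were called higher and 1.95% lower, 4 neutrophil, 2 cholangiocyte, 1 stellate and 1 macrophage marker were called higher and 1 endothelial marker lower. In dHSC livers, where 1.71% were called higher, 3 neutrophil markers were. The part of other cell types in the dHep levels was not tested.

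Ratios between the genes within a library are free of library scaling. There were 0.553 to 1.07 reads of Cyp1a1 for each read of Cyp1a2 in dHep TCDD livers, and 0.0547 to 0.308 in dHep vehicle livers. The ratio was 0.324 to 0.392 in dHSC TCDD livers and 0.00252 to 0.0100 in dHSC vehicle livers, and 0.367 to 0.414 in WT TCDD livers and 0.00344 to 0.0309 in WT vehicle livers. TCDD therefore moved the pair toward Cyp1a1 in every genotype. The mean shift was 4.38 on the log2 scale (exact two-sided permutation within genotypes, p = 0.00025, the smallest that the 8000 arrangements allow), with every TCDD liver above every vehicle liver of its genotype. The log2 ratio was -0.39 ± 0.48 (SD, n = 3) in dHep TCDD livers and -1.33 ± 0.10 in WT TCDD livers. With vehicle it was -2.62 ± 1.36 in dHep and -6.33 ± 1.65 in WT livers. Both differences, 0.94 with TCDD and 3.70 with vehicle, separated the genotypes in all livers (exact permutation p = 0.10 each, the smallest that 3 against 3 allows). The vehicle difference was 2.78 without WT vehicle mouse 7, 4.36 without WT vehicle mouse 13 and 4.48 without dHep vehicle mouse 15. The ratio of Cyp1b1 to Cyp1a1 moved much less, with group means between -2.68 and -1.82 on the log2 scale and single livers between -3.71 and -0.59. Cyp1b1 thus followed Cyp1a1 across all 6 groups, while Cyp1a2 did not keep pace with either.

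**Figure D3:**
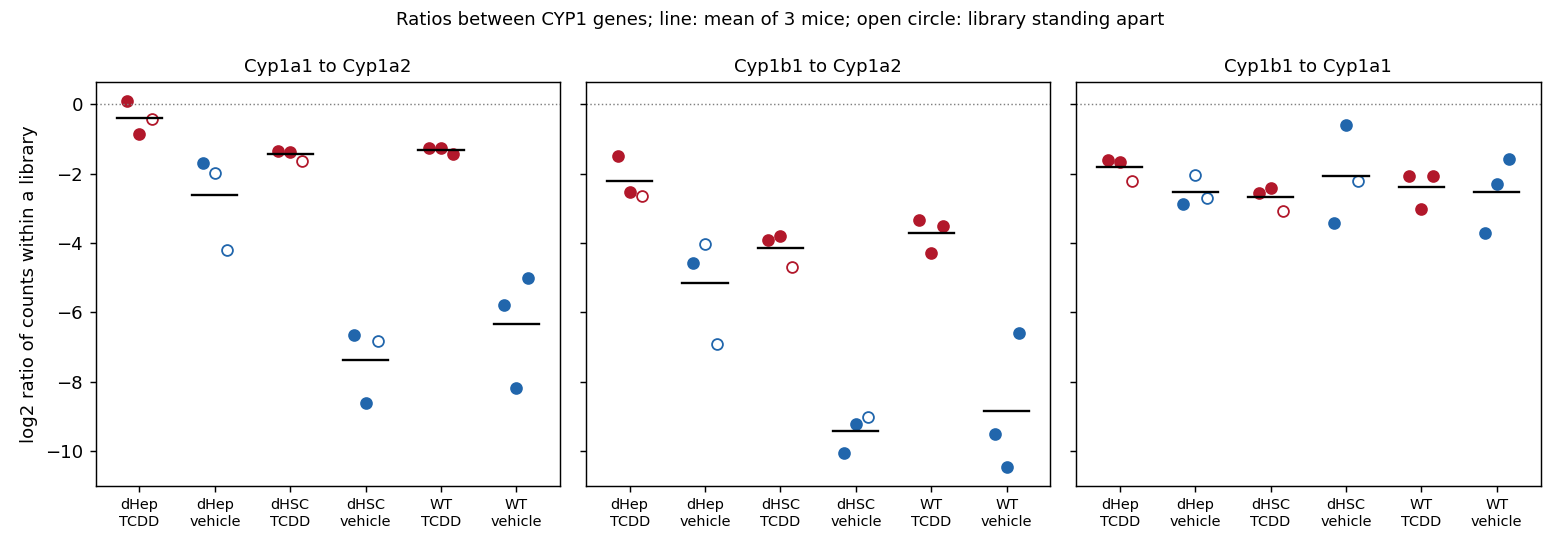
Log2 ratio of counts of a gene pair within each library, by genotype and treatment (red TCDD, blue vehicle; lines, means of 3 mice; open circles, the 5 libraries that stand apart). The ratios to Cyp1a2 separate TCDD from vehicle livers in every genotype, while group means of Cyp1b1 to Cyp1a1 stay between -2.68 and -1.82.

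The genes around the family were compared to see how far along the chromosome the response reached. Within 100000 bases of the Cyp1a pair, Scamp2, Ulk3, Csk, Edc3 and Clk3 were tested, and Cplx3, Lman1l and Arid3b had too few counts to be tested. With TCDD in WT livers their log2 changes were 0.09 ± 0.24 for Scamp2, -0.03 ± 0.23 for Ulk3, -0.03 ± 0.23 for Csk, -0.12 ± 0.25 for Edc3 and -0.03 ± 0.28 for Clk3 (SE, n = 3, edgeR adjusted p of at least 0.925). Edc3, which encodes an mRNA decapping factor, begins 4715 bases beyond the end of Cyp1a1 on the same strand. Beside Cyp1b1, Rmdn2 was at -0.10 ± 0.42. None of these 6 neighbours was called by edgeR in any of the 10 comparisons. With TCDD in WT livers 3.43% of all genes were called higher and 1.95% lower. A lack of calls among 6 genes is therefore near the background and says nothing particular of them.

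**Figure D4:**
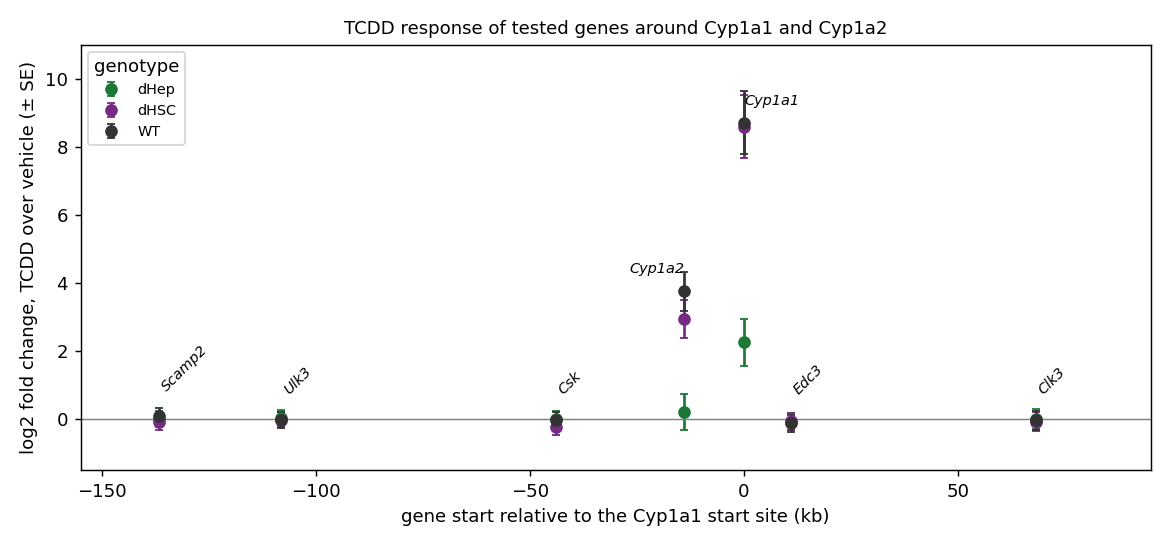
Log2 fold change of TCDD over vehicle (± SE) in each genotype for the tested protein-coding genes around Cyp1a1, by the distance of their start from the Cyp1a1 start site in kb. Cyp1a1 and Cyp1a2 stand out at 8.70 and 3.76 in WT, while the 5 neighbours lie between -0.22 and 0.09 in all genotypes.

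Other genes of the AHR pathway give the setting. The 2 feedback genes were called higher with TCDD in dHSC and WT livers, where 1.71% and 3.43% of all genes were called higher. Ahrr, which encodes the AHR repressor, had a log2 change of 1.76 ± 0.48 in dHep livers (edgeR adjusted p = 0.389), 7.66 ± 0.63 in dHSC (adjusted p = 6.84e-06) and 8.03 ± 0.64 in WT (adjusted p = 4.52e-06). Tiparp, an ADP-ribosyltransferase that restrains AHR, was at 1.01 ± 0.34 in dHep (adjusted p = 0.523), 3.26 ± 0.36 in dHSC (adjusted p = 8.41e-05) and 3.68 ± 0.37 in WT (adjusted p = 2.44e-05). Both had a lower response in dHep than in WT, with log2 differences of -6.28 for Ahrr and -2.67 for Tiparp (adjusted p = 0.000932 and 0.0131, edgeR). Of all genes, 0.506% were called lower there. Vehicle livers of dHep mice had 1.45 ± 0.735 CPM of Ahrr and those of WT mice 0.229 ± 0.251, a log2 difference of 2.65 ± 0.59 (adjusted p = 0.623, edgeR). For Tiparp they had 8.59 ± 1.47 CPM in dHep and 9.85 ± 3.22 in WT, a log2 difference of -0.20 ± 0.33 (adjusted p = 0.776, edgeR), so Ahrr leaned the way of Cyp1a1 and Cyp1b1 there and Tiparp did not.

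Of 10 further genes of the AHR battery 7 were tested. With TCDD in WT livers 3 were called higher, the quinone reductase Nqo1 (2.67 ± 0.33, edgeR adjusted p = 0.000156), the aldehyde dehydrogenase Aldh3b1 (2.87 ± 0.31, adjusted p = 4.81e-05) and the glutathione transferase Gsta1 (4.38 ± 0.53, adjusted p = 0.000144). Gsta1 has close paralogs, and reads may be split between them. The 1 called lower, as 1.95% of all genes were, was the monooxygenase Fmo2 (-1.63 ± 0.36, adjusted p = 0.0142), a call that ended without WT vehicle mouse 1 or without WT TCDD mouse 2, 8 or 14. In dHSC livers, where 1.71% of all genes were called higher, 2 rose, Nqo1 and Aldh3b1. In dHep livers 0 of the 7 were called by edgeR, where 0.027% of all genes were called higher, so that 0 is near the background. Under TCDD, Nqo1, Aldh3b1 and Gsta1 were lower in dHep than in WT livers, as were 1.12% of all genes. Of the 7 battery and 2 feedback genes together, 5 had a lower and 1, Fmo2, a higher response in dHep than in WT. Of all genes, 0.506% were called lower and 0.351% higher there. With a 2-fold threshold the counts were 1 and 0, and fewer were called with the 5 libraries left out. The call of Fmo2 ended in 10 of the 12 fits that left out 1 library, all except those without WT vehicle mouse 7 or dHep TCDD mouse 16. The 5 lower calls became 3 without WT TCDD mouse 2 or 8 or dHep TCDD mouse 4, and 2 without WT vehicle mouse 13. The electron donors of P450 enzymes (Por, Cyb5a, Cyb5b, Cyb5r3, Fdx1 and Fdxr) had 0 of 6 called with TCDD by edgeR in any genotype. Of 8 other xenobiotic P450 genes, among them Cyp2e1, Cyp2b10 and Cyp3a11, 0 were called by edgeR, with median log2 changes of 0.15 in dHep, -0.76 in dHSC and -0.55 in WT livers. With 3.43% of all genes called higher in WT livers and fewer in the others, a count of 0 in lists of 6 and 8 genes is near the background and says nothing particular of them.

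The genes whose profile lay nearest to each CYP1 gene were found by the root mean square difference of log2 CPM over the 18 libraries, each gene centred on its mean. For Cyp1a1 the nearest was Cyp1b1, at 0.72, then Ahrr at 1.01, Gpnmb at 1.43, Nptx1 at 1.53 and Apol7c at 1.57, where Cyp1a1 itself varied by 3.83 about its mean. For Cyp1b1 the nearest was Cyp1a1, then Ahrr at 0.74, Apol7c at 1.28, Gpnmb at 1.29 and the collagenase Mmp13 at 1.53. Cyp1a2 shared none of these names, and its nearest were Mdfi at 0.97, Cd163l1 at 0.98, Insl6 at 1.02, Ovol1 at 1.06 and Sorcs3 at 1.11, against 2.26 for Cyp1a2 about its own mean. All 5 were much less abundant than Cyp1a2, with at most 27.7 CPM on average in WT TCDD livers. Vehicle livers of WT mice averaged 1.08 CPM of Mdfi and 0.207 of Insl6, and those of dHSC mice 1.34 and 0.386. Cyp1a2 itself averaged 1189 and 1548 CPM in these groups. At such low levels the prior count of 2 compresses differences in log2 CPM. In dHep livers the 5 genes were low with and without TCDD, Mdfi at 1.61 CPM with TCDD and 1.18 with vehicle and Insl6 at 0.190 with TCDD and 0.184 with vehicle. Gpnmb and Apol7c averaged 45.1 and 44.4 CPM in dHep TCDD livers and 2.87 and 3.46 CPM in dHep vehicle livers. Mmp13 averaged 8.92 CPM with TCDD and 0.821 with vehicle in dHep livers. Nptx1, nearer to Cyp1a1 than Apol7c, was low in both dHep groups, at 0.668 CPM with TCDD and 0.665 with vehicle. The genes near Cyp1a1 thus differed among themselves in dHep livers. These genes were picked for their likeness, so the distances are a description.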

How the data were processed

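Each deposited file held the authors' raw read counts per gene for 1 liver, checked to be whole numbers for the same 55536 Ensembl identifiers. The submitters' processing notes name FastQC 0.11.9, HISAT2 2.1.0, HTSeq 0.11.3, DESeq2 1.22.2 and the build GRCm38; counting settings are not given in the sources used here. Symbols and positions came from GENCODE M21, and 55450 identifiers had one. Counts were fitted with edgeR 4.0.16 in R 4.3.3: filterByExpr kept 14835 genes, libraries were scaled by TMM, and 1 model gave each of the 6 groups a mean. The quasi-likelihood test compared groups, p-values were adjusted by Benjamini-Hochberg across the 14835 genes, and an adjusted p below 0.05 made a call. Standard errors of log2 changes were derived from that test, as the size of the change divided by the square root of its F statistic. They are approximate and depend on the size of the change, as do the 95% intervals built on them. The edgeR fit was tried on simulated counts for TCDD in WT only, with less spread between libraries than in these data. The other steps were not tried on simulated data. Log2 CPM used a prior count of 2, and count ratios within a library a pseudocount of 0.5. Named genes are the 3 CYP1 genes, members of the listed gene groups called in at least 1 comparison and protein-coding genes within 100000 bases. For each CYP1 gene the 5 tested genes with the nearest profile and a mean of at least 1 CPM are named too. Ahr, the P450 electron donors, Cyp2e1, Cyp2b10 and Cyp3a11 are also named, though edgeR called none of them in any comparison. The genes, lists and alternatives were chosen with earlier results of these data known. Alternatives were RLE scaling, other filters, a block on sets of mouse numbers, the groups of a comparison alone, DESeq2 1.42.0, a 2-fold threshold, a covariate, and leaving out libraries. Each library is 1 mouse. The result for 1 of the listed gene groups is not reported here.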

Additional observations from a re-analysis of the deposited data

Results flagged for a closer look

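The response to TCDD differed between genotypes in a test of the difference itself for the CYP1 genes, with edgeR's quasi-likelihood test adjusted over all genes. Against WT, the dHep response was lower for all 3, with differences of -6.44 for Cyp1a1, -3.54 for Cyp1a2 and -6.33 for Cyp1b1 on the log2 scale. The call of Cyp1a2 was the least stable and ended in 9 of the 12 fits that left out 1 library. Against dHSC, the dHep response was lower for Cyp1a1, at -6.33, and for Cyp1b1, at -5.49. In the tests against WT and against dHSC, 0.506% and 0.276% of all genes were called lower. In each of these comparisons 3 of 3 dHep TCDD livers lay below every TCDD liver of the other genotype. The share of all genes separated in this way was not counted, so the separation is a description.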

How the results depend on the processing

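Calls of Cyp1a1 and Cyp1b1 with TCDD in WT and dHSC livers, and calls of all 3 genes between dHep and WT livers under TCDD, kept direction and side of the threshold in every alternative. Without the 5 libraries that stand apart, the log2 value was -6.81 for Cyp1a1 and -3.12 for Cyp1a2 in the dHep minus WT response, -7.20 for Cyp1a1 in the dHep minus dHSC response and 3.27 for Cyp1a2 with TCDD in dHSC, none of them called. Among uncalled values, this setting turned the sign of the dHSC minus WT response of Cyp1a1 (0.40) and of Cyp1b1 in dHSC against WT vehicle (-0.19). Cyp1a2 in the dHep minus WT response was at -3.55 with only the groups of the comparison and at -3.54 with a 2-fold threshold, neither called. Newly called were Cyp1b1 with TCDD in dHep with no filter (2.90) and, with DESeq2, Cyp1b1 with TCDD in dHep (2.85) and in dHep against WT vehicle (2.56) and Cyp1a2 in the dHep minus dHSC response (-2.75). Leaving out each library in turn gave -4.00 to -3.06 for Cyp1a2 in the dHep minus WT response and 2.79 to 3.20 for Cyp1a2 with TCDD in dHSC. Among uncalled values it gave -1.35 to 0.30 for Cyp1a1 in the dHSC minus WT response, and, in dHSC against WT vehicle, -0.82 to 0.83 for Cyp1a1, -0.093 to 0.84 for Cyp1a2 and -0.19 to 0.38 for Cyp1b1. The cause of these changes was not tested. Without 1 library the shift of the Cyp1a1 to Cyp1a2 ratio with TCDD ranged from 4.07 to 4.60. No mouse number is shared between groups, but the numbers run in 3 sets, 1 to 6, 7 to 12 and 13 to 18, each with 1 library of every group, and 4 of the 5 libraries that stand apart are in the last; the labels do not say that a set is a batch. The deviations of libraries from their group means were correlated in pairs. Within mice 1 to 6 the median correlation was 0.44 (-0.067 to 0.71, 15 pairs). Deviations within a group add up to 0, so a library that stands apart moves the others of its group the opposite way. Mice 1 to 6 include 0 of the 5 such libraries, and the part of this in their correlation was not tested. The median correlation was -0.13 within mice 7 to 12 (-0.62 to 0.51) and -0.15 within mice 13 to 18 (-0.45 to 0.73). Pairs from different sets had a median of -0.10 (-0.81 to 0.74), close to that within the later sets. With the set as a replicate block, chosen after seeing the data, every CYP1 result kept its direction and its side of the threshold, the log2 difference between the dHep and WT responses being -6.58 for Cyp1a1, -3.63 for Cyp1a2 and -6.22 for Cyp1b1.

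The counts of called genes behind the background shares moved more than the CYP1 results. With TCDD in WT livers the count was 798, but 269 with a 2-fold threshold, 1584 without the 5 libraries, 1926 with the percentage of reads outside protein-coding genes added to the fit (the covariate below), 1323 with DESeq2, and 445 to 921 when 1 library was left out. In dHep livers it was 10, but 19 with no filter, 41 with the covariate, 79 with DESeq2 and 0 with only these groups, with a 2-fold threshold or without the 5 libraries. In dHSC livers it was 379, but 75 with only these groups, 139 with a 2-fold threshold, 214 without the 5 libraries, 792 with the covariate and 717 with DESeq2. For the dHep minus WT response it was 127, but 48, 19, 227 and 288 with the 2-fold threshold, without the 5 libraries, with the covariate and with DESeq2. For the dHep minus dHSC response it was 64, but 27 with only these groups and 25, 13, 131 and 225 with the same 4. Between dHep and WT under TCDD it was 288, but 108 with a 2-fold threshold, 720 with the covariate and 572 with DESeq2. Between dHSC and WT under TCDD it was 0, but 9 with the covariate and 21 with DESeq2. Leaving out 1 library gave 0 to 11 in dHep, 169 to 297 in dHSC, 51 to 130 and 24 to 61 for the dHep minus WT and dHep minus dHSC responses, and 159 to 215 between dHep and WT under TCDD.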
